A study of Mus musculus with 15 samples.

Results

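The genes described here are 10 genes of fatty acid uptake and mitochondrial beta oxidation, chosen by name: Cd36, Fabp3 and Lpl for uptake, Cpt1b and Cpt2 for entry into mitochondria, Acadm, Acadl and Acadvl for the acyl-CoA dehydrogenase step, and Hadha and Hadhb for the trifunctional protein. All 10 were found by gene name among the 55536 genes of the deposited tables, and all 10 passed the filter on low values in each comparison. Poly(A) RNA came from skeletal muscle of male mice aged 2 months, with 5 samples labelled wild type (control), 5 labelled PdgfrB Knock Out (knockout) and 5 labelled PdgfrB D489V. Per the series' design text the knockout is specific to myogenin, a gene of differentiating muscle cells, and so is the other allele, which makes the receptor constitutively active. PDGF receptor beta is a receptor tyrosine kinase known from pericytes and other mesenchymal cells. Which cells the Pdgfrb RNA of these samples came from was not tested. On GRCm38 the uptake genes lie on chromosome 5 (Cd36, 17781690 to 17888801), chromosome 4 (Fabp3, 130308595 to 130315463) and chromosome 8 (Lpl, 68880491 to 68907448), and the carnitine genes on chromosome 15 (Cpt1b, 89416405 to 89425863) and chromosome 4 (Cpt2, 107903981 to 107923610). The dehydrogenase genes lie on chromosome 3 (Acadm, 153922357 to 153944632), chromosome 1 (Acadl, 66830839 to 66863277) and chromosome 11 (Acadvl, 70010183 to 70015411). The labels name no muscle, Cre line, strain, litter or batch, and no agent was given.

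In muscle, fatty acids reach the fibre from lipoproteins cut at the capillary wall and from albumin, cross the membrane, and are carried in the cytosol by a binding protein. They enter mitochondria as carnitine esters and are then shortened in cycles of dehydrogenation, hydration, a further dehydrogenation and thiolysis. Fibres rich in mitochondria express more of this machinery than fast glycolytic fibres, and fat cells and capillaries in the tissue carry some of the same uptake genes.

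Per sample, the normalized counts added up to between 29815559 and 36489777. Acta1, skeletal muscle actin, held 939485 to 1400228 normalized counts in each. Pdgfrb, the targeted gene, held 958 to 1628 normalized counts in knockout, 1673 to 1848 in control and 820 to 1062 in D489V. It differed by -0.45 on the log2 scale in knockout against control (limma adjusted p 0.294) and by -0.96 in D489V against control (limma adjusted p 0.00168). Knockout replicate 3, labelled male, held 3165 normalized counts of Xist, the RNA of the inactive X chromosome in females, against at most 101 elsewhere. Control 5 and knockout 3, 4 and 5 held 6252, 2292, 5566 and 1536 normalized counts summed over 10 lymphocyte and lymph node genes, against at most 314 in the other samples. Values without these samples are given for some of the results.

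Apart from Cpt1b, each of the 10 genes overlapped between the labelled groups in every comparison. The only member called was Cpt1b, which was lower in knockout than in D489V, a comparison in which 20.8% of all genes were called. In the oxidation genes other than Cpt1b, the larger part of the variation lay among samples of 1 group. Controls 1 and 2 and D489V 1, 2 and 3 were low in the same 6 members, the uptake gene Fabp3 with Cpt2, Acadm, Acadvl, Hadha and Hadhb. The uptake genes Cd36 and Lpl followed a different order of samples, with their highest values in D489V.

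**Figure D1:**
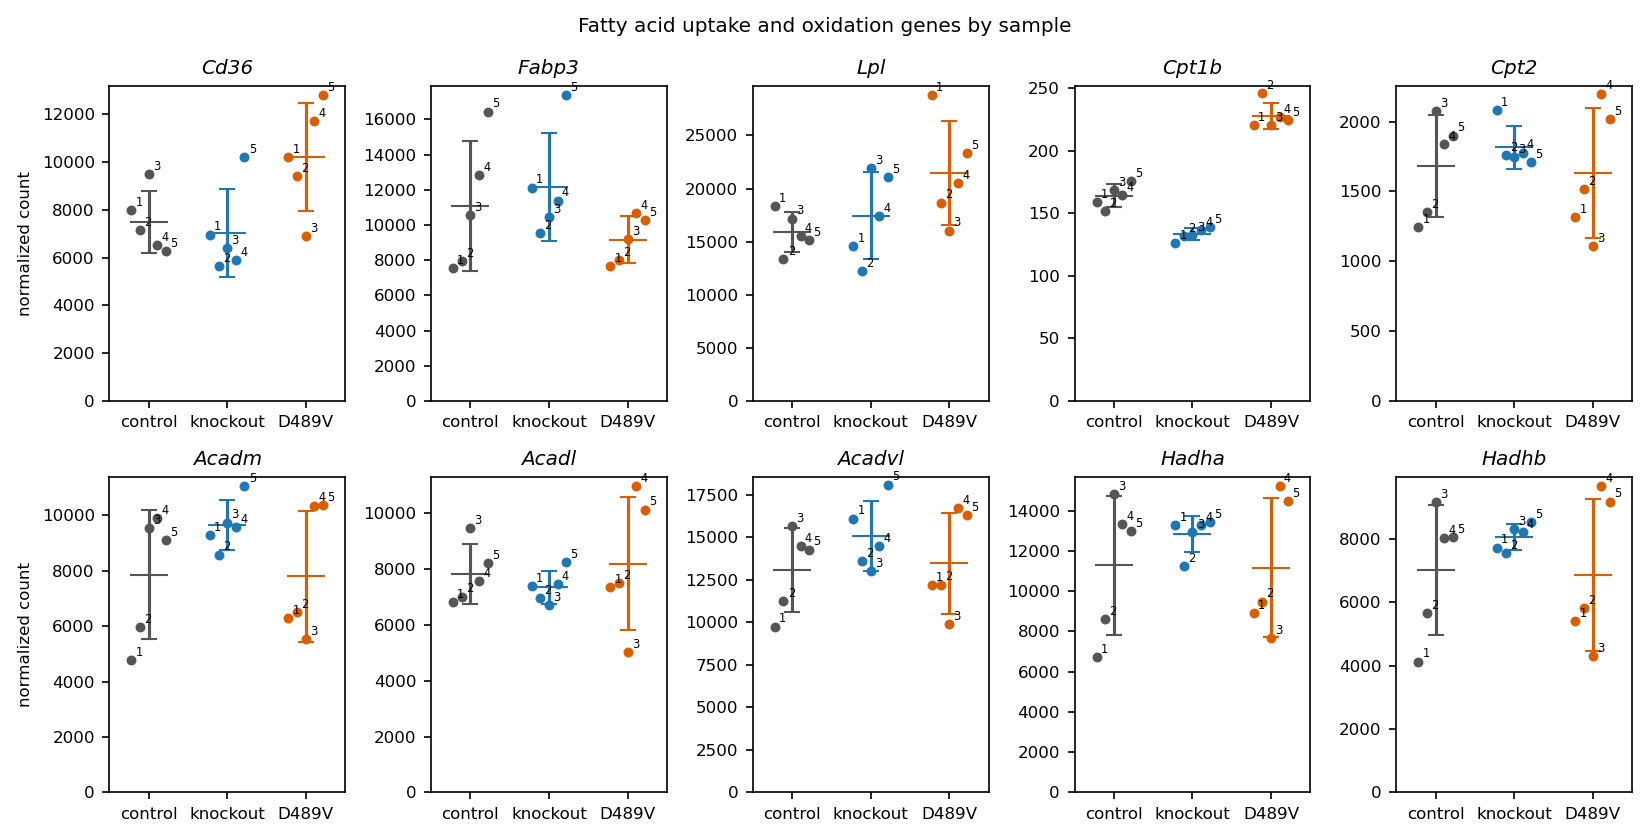
Normalized counts of the 10 genes in each sample, 1 panel per gene with its own axis from 0. Points are samples with their replicate number, and the horizontal mark and bars are the group mean and SD (n = 5). Cpt1b is the gene in which the 3 groups do not overlap, and in Hadha controls 1 and 2 and D489V 1 to 3 lie at 6719 to 9482 against 11260 to 15218 in the other samples.

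Cd36, a membrane protein that takes up long-chain fatty acids, held 7982, 7159, 9481, 6519 and 6273 normalized counts in controls 1 to 5. It held 6960, 5629, 6404, 5907 and 10219 in knockout and 10198, 9412, 6899, 11707 and 12797 in D489V. D489V 1, 4 and 5 lay above every control, and D489V 4 and 5 above every knockout sample as well, while D489V 3 lay within the control range. The log2 difference from control was -0.11 (SE 0.168) in knockout and 0.43 (SE 0.169) in D489V, with limma adjusted p of 0.755 and 0.446. Knockout was lower than D489V by 0.54 on the log2 scale (95% interval -0.95 to -0.14), with a limma adjusted p of 0.0571 that missed the threshold of 0.05. The adjusted p came to 0.0249 without knockout 5 and to 0.0246 without D489V 3, the highest knockout and the lowest D489V sample. Each of these fits leaves out the sample most against the difference. Over 21 alternatives the limma adjusted p ran from 0.018 to 0.114, and Cd36 was called in 6 of them.

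Lpl encodes lipoprotein lipase, which frees fatty acids from circulating triglyceride at the capillary wall. Its normalized counts were 18362, 13385, 17170, 15530 and 15107 in controls, 14562, 12264, 21918, 17439 and 21111 in knockout, and 28827, 18682, 16046, 20487 and 23309 in D489V. The highest sample was D489V 1, and the lowest was knockout 2, but the 3 groups overlapped. The log2 difference from control was 0.41 (SE 0.154) in D489V (limma adjusted p 0.418) and 0.11 (SE 0.165) in knockout (limma adjusted p 0.754). The knockout value depended on which samples were used: it was -0.26 without control 5 and knockout 3, 4 and 5 together (limma adjusted p 0.703).

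Fabp3, the cytosolic fatty acid binding protein of heart and muscle, held 7549, 7964, 10579, 12826 and 16444 normalized counts in controls. The knockout samples held 12118, 9528, 10441, 11382 and 17394, and the D489V samples 7681, 8018, 9201, 10657 and 10260. Control 5 and knockout 5 were the highest of all, and all groups overlapped. Its log2 difference was 0.17 (SE 0.224) in knockout and -0.22 (SE 0.202) in D489V against control, with limma adjusted p of 0.72 and 0.771. Knockout exceeded D489V by 0.39 (95% interval 0.05 to 0.73), with a limma adjusted p of 0.0917. Reads of Fabp3 may in part be shared with its processed pseudogene Fabp3-ps1, which was listed at 57 to 155 normalized counts.

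In knockout against D489V the log2 difference was -0.54 in Cd36 and -0.30 in Lpl, the direction of the fat and capillary cell markers, and 0.39 in Fabp3, the opposite direction. None of these 3 values passed the test. Over 10 adipocyte genes, among them Adipoq, Plin1 and Cidec, the summed normalized count was 8828 to 78313 in control, 14423 to 26877 in knockout and 33392 to 114568 in D489V, with no gene at 0 in any sample. Of these 10, 7 were lower in knockout than in D489V (limma adjusted p under 0.05), as were 10.3% of all genes tested. In the comparisons of knockout and D489V with control 0 passed, where 0.00656% and 0.0587% of all genes did. Over 10 endothelial genes, among them Pecam1 and Cdh5, the sum was 17455 to 25513 in control, 10979 to 16938 in knockout and 20086 to 23985 in D489V. Knockout 1 and 2 held 16543 and 16938, near the lowest control. Knockout 3, 4 and 5, the samples with lymphocyte genes, held 10979, 12332 and 12312. All 10 genes were lower in knockout than in D489V (limma adjusted p under 0.05). The part of knockout 3, 4 and 5 in these calls was not tested. Fewer cells of a type and less RNA per cell cannot be told apart in whole tissue, and the part of fat and capillary cells in the Cd36 and Lpl values was not tested. The sums over 10 slow fibre genes were 22813 to 223687, 11703 to 236415 and 50386 to 239851 in control, knockout and D489V, and the highest were in D489V 3, knockout 3 and control 5. Of these, control 5 (16444 normalized counts) was among the highest in Fabp3, while knockout 3 (10441) and D489V 3 (9201) were not. The part of slow fibres in the Fabp3 values was not tested.

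Cpt2, the inner membrane enzyme that turns carnitine esters back into acyl-CoA, was lower than the other members per length apart from Cpt1b. It held 1243, 1350, 2077, 1842 and 1900 normalized counts in controls, 2084, 1758, 1745, 1779 and 1713 in knockout and 1314, 1519, 1110, 2201 and 2017 in D489V. Knockout 2 to 5 lay within the range of both other groups, and knockout 1 lay just above the highest control. The log2 difference from control was 0.14 (SE 0.142) in knockout and -0.06 (SE 0.205) in D489V, with limma adjusted p of 0.639 and 0.947.

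The acyl-CoA dehydrogenases take the first step of each cycle, Acadvl and Acadl on long chains and Acadm on medium chains. Acadvl held 9752, 11253, 15635, 14468 and 14279 normalized counts in controls, 16100, 13621, 13018, 14486 and 18097 in knockout, and 12198, 12216, 9873, 16726 and 16311 in D489V. Acadm held 4792, 5961, 9540, 9903 and 9125 in controls, 9296, 8589, 9745, 9583 and 11057 in knockout, and 6288, 6511, 5522, 10359 and 10380 in D489V. In both genes controls 1 and 2 and D489V 1 to 3 were low, and every knockout sample lay above these 5. Acadl was less divided, at 6808, 7009, 9462, 7567 and 8198 in controls, 7386, 6944, 6719, 7449 and 8254 in knockout, and 7340, 7488, 5028, 10975 and 10124 in D489V. The log2 differences of the 3 genes from control were -0.08 to 0.35 in knockout and -0.00 to 0.04 in D489V, and the lowest adjusted p in limma was 0.386, for Acadm in knockout.

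Hadha and Hadhb encode the subunits of the mitochondrial trifunctional protein, the alpha subunit with the hydratase and hydroxyacyl-CoA dehydrogenase activities and the beta subunit with the thiolase. The genes lie head to head on chromosome 5 (Hadha 30118304 to 30155162, minus strand; Hadhb 30155248 to 30184593, plus strand, GRCm38). The genes of the subunits varied together over the 15 samples (Pearson r 0.987). So did Acadm, on chromosome 3, with Hadha (0.977) and with Hadhb (0.972). What this shared variation rests on was not tested. The 85 bases between the GENCODE M21 starts of Hadha and Hadhb are shown as a description. They hold 9 CpG dinucleotides, and run from chr5:30155163-30155247 on the plus strand of GRCm38.p6 (RefSeq sequence).
Hadha-Hadhb: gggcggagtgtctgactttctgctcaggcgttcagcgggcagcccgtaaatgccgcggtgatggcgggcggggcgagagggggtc

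Hadha held 6719, 8607, 14807, 13329 and 12987 normalized counts in controls, 13274, 11260, 12921, 13261 and 13413 in knockout and 8913, 9482, 7658, 15218 and 14482 in D489V. Hadhb held 4129, 5661, 9160, 8025 and 8060 in controls, 7727, 7557, 8323, 8205 and 8538 in knockout and 5399, 5807, 4298, 9663 and 9179 in D489V. The same samples were low in both genes, while the knockout samples stayed in a narrow range. The ratio of Hadha to Hadhb within a sample, which does not depend on scaling between samples, was 1.61 ± 0.0523 in control, 1.59 ± 0.0849 in knockout and 1.64 ± 0.0841 in D489V (SD, n = 5 each), and 1.49 to 1.78 over all 15. Its coefficient of variation over the 15 samples was 4.56%, whereas Hadha alone varied by 30.5% among controls, 6.97% among knockout and 30.9% among D489V samples. The log2 difference from control was 0.24 (SE 0.197) for Hadha and 0.26 (SE 0.188) for Hadhb in knockout, and -0.01 (SE 0.252) and -0.04 (SE 0.264) in D489V, with limma adjusted p of 0.494 to 0.993.

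**Figure D2:**
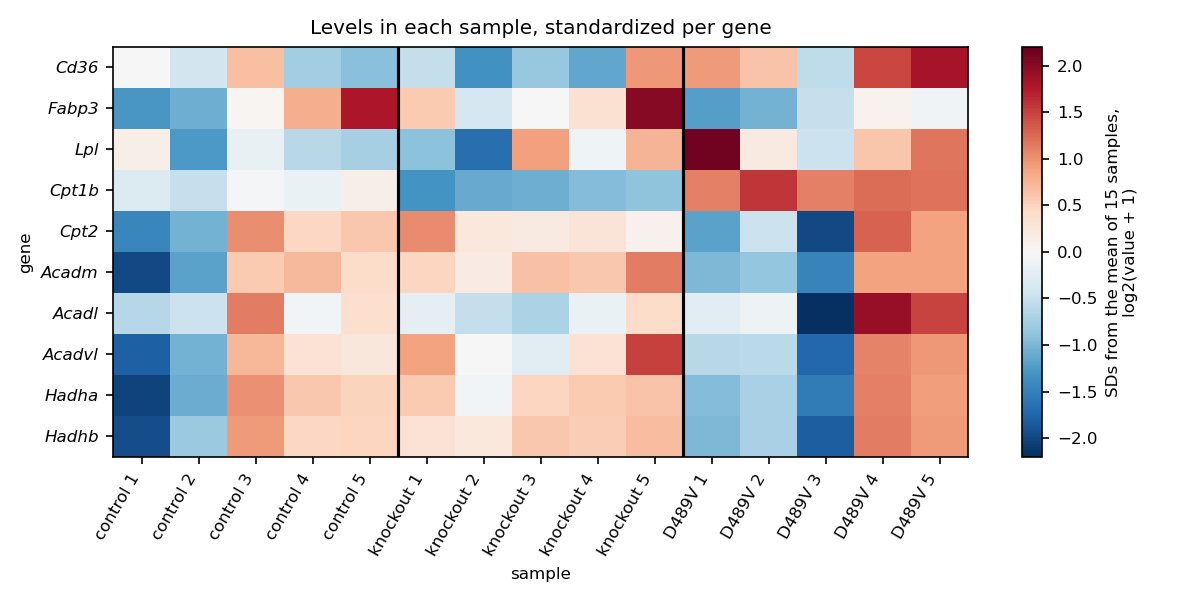
Each gene's log2(value + 1) in each sample, in SDs from that gene's mean over the 15 samples (red above, blue below). Cpt2, Acadm, Acadvl, Hadha and Hadhb are bluest in controls 1 and 2 and D489V 1 to 3, with paler blue in knockout 2 (Acadvl, Hadha) and knockout 3 (Acadvl), and Cpt1b instead follows the labelled groups.

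The 5 samples in which Hadha was lowest, controls 1 and 2 and D489V 1 to 3, were also the lowest 5 in Fabp3, Cpt2, Acadm, Acadvl and Hadhb. Those samples held 4792 to 6511 normalized counts of Acadm against 8589 to 11057 in the other 10, and 4129 to 5807 of Hadhb against 7557 to 9663. Of 15807 genes measured, 1506 (9.53%) had the same lowest 5 samples, as did 22 of 85 other fatty acid pathway genes. Of 14 genes for mitochondrial content, 7 did, among them Cs, citrate synthase, and Sdha, a subunit of succinate dehydrogenase. None of the 10 adipocyte, 10 endothelial or 10 slow fibre genes did. The samples were picked out by their Hadha level, so these counts are a description with no test. The labels name no property that divides these samples. In control and D489V they carry the lowest replicate numbers, but knockout 1 and 2 were not among them. What the replicate numbers stand for is not given.

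The spread among samples of 1 group was unequal. The median SD of the members on the log2 scale was 0.31 in control, 0.12 in knockout and 0.38 in D489V, against 0.24, 0.20 and 0.20 for the 12155 genes with a mean of 50 or more. The members did not share this order. In knockout the uptake genes had SDs of 0.34 (Cd36), 0.33 (Fabp3) and 0.36 (Lpl), above the median of all genes, while Cpt1b lay below that median in each group. With such spread, the 95% interval of Hadha in D489V against control ran from -0.56 to 0.54 on the log2 scale, so changes within that range could not be told from 0.

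Genes outside the 10 whose levels over the 15 samples were most like the mean standardized level of the members were Retsat (Pearson r 0.94 over 15 samples), Etfa (0.92), Acsl1 (0.91), C330007P06Rik (0.90) and Slc25a20 (0.90). Etfa is a subunit of the electron transfer flavoprotein that takes electrons from the acyl-CoA dehydrogenases, Acsl1 an acyl-CoA synthetase and Slc25a20 the mitochondrial carrier of carnitine esters. Etfa, Acsl1 and Slc25a20 had the same lowest 5 samples as Hadha, the division of the samples described above. Among the members, Acadvl (0.93) and Hadha (0.90) lay closest to that mean, and Lpl (0.38) and Cpt1b (0.13) farthest from it.

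Levels of different genes were compared per kilobase of the principal transcript in GENCODE M21. Over 15 samples Fabp3 was the highest, at a mean of 13126 normalized counts per kb, with Acadvl next at 6397. Lpl (4442), Acadm (4125), Acadl (4062) and Hadhb (3572) followed, and neighbours among these 4 did not differ beyond the spread within groups, with control values of 3867 ± 467, 3842 ± 1136, 4076 ± 559 and 3421 ± 1003 (SD, n = 5). Hadha (2926), Cd36 (2423) and Cpt2 (721) had lower means. The order was not the same in each group: in D489V, Cd36 (3002 ± 667) had a higher mean than Hadha (2776 ± 859), and Lpl (5218 ± 1188) lay within the spread of Acadvl (6211 ± 1361; SD, n = 5). Cpt1b was left out of this order for the reason given next.

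Cpt1b encodes the muscle form of carnitine palmitoyltransferase at the outer mitochondrial membrane, the step at which entry of long-chain fatty acids is controlled. Its normalized counts were 159, 152, 169, 165 and 176 in controls, 126, 132, 133, 137 and 139 in knockout, and 221, 246, 221, 227 and 225 in D489V. Every knockout sample lay below every control, and every D489V sample above every control. The group means were 164.2 ± 9.2, 133.4 ± 5.0 and 228 ± 10.4 (SD, n = 5).

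Knockout was lower than D489V by 0.77 on the log2 scale (SE 0.097, 95% interval -0.98 to -0.56), with a limma adjusted p of 0.00162. Against control the log2 difference was -0.30 (SE 0.106) in knockout and 0.47 (SE 0.094) in D489V, and neither passed (limma adjusted p 0.305 and 0.0845, unadjusted 0.0166 and 3.19e-04). Groups did not overlap for 2.24% of all genes tested in knockout against control, for 2.16% in D489V against control and for 13.9% in knockout against D489V. In the last comparison 20.8% of 15299 genes were called, and 10.3% were lower in knockout, so 1 lower member of 10 is near the share of all genes. The call held without any 1 sample (limma adjusted p 0.00167 to 0.00852).

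The level of Cpt1b needs care. At about 60.5 normalized counts per kb it was listed far below Cpt2 (721), the enzyme that acts next. In GENCODE M21, 2744 of its 3372 exon bases (81.4%) are also exon bases of Gm44502, a transcript on the same strand that joins Chkb, the neighbouring choline kinase gene, to Cpt1b. All 4296 exon bases of Gm44502 lie within exons of Cpt1b or Chkb, and Gm44502 was listed at 0 in all 15 samples. The unshared part of Cpt1b is 628 bases. Of these, 448 are in the first exon of the short transcript Cpt1b-203 and 151 in the full coding transcript Cpt1b-201, namely exon 1 (66 bases) and exon 9 (85 bases) of its 19 exons. How the counting treated shared bases is not given in the sources used here, so the value may stand for a small part of the transcript, and a difference in total Cpt1b RNA cannot be told apart from a difference in its 5' end or in the use of exon 9. The coefficient of variation was 5.6% in control, 3.77% in knockout and 4.56% in D489V. Independent counting alone would give 7.80%, 8.66% and 6.62% if these means were raw counts. They are normalized values, and each coefficient rests on 5 samples, so no conclusion is drawn from the lower spread.

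**Figure D3:**
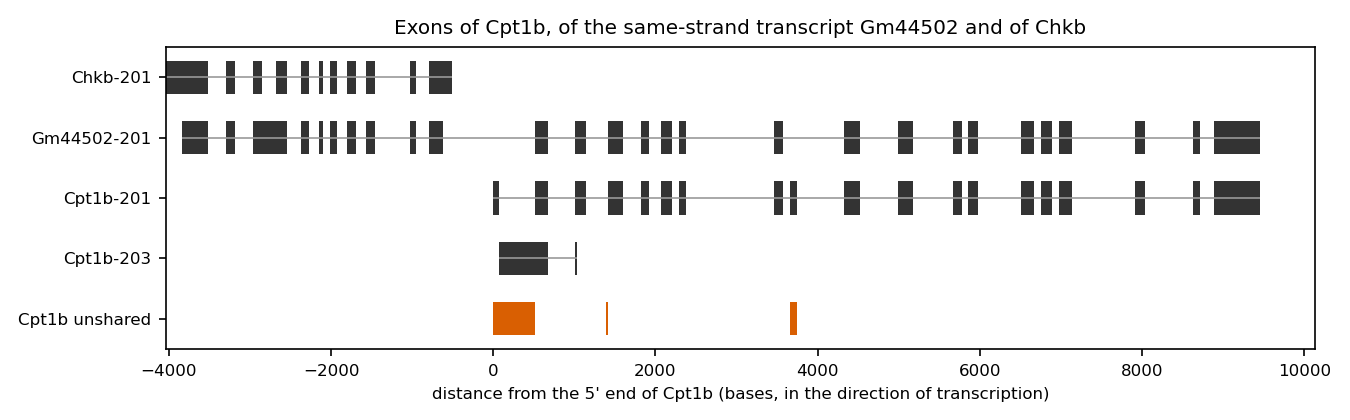
Exons (dark blocks) of Chkb, Gm44502 and the transcripts Cpt1b-201 and Cpt1b-203 on a scale of bases from the 5' end of Cpt1b, with the Cpt1b exon bases not shared on the same strand in orange. The orange blocks sum to 628 bases, and all but the block of exon 9 and a thin block before it lie at the 5' end.

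The other members share no exon bases with a gene on the same strand. Acadvl shares 1151 of 2686 exon bases with Dvl2 on the opposite strand, where the listed level was 237 to 348 normalized counts against 9752 or more for Acadvl. Libraries kept strand, per the labels' protocol, but the strand setting of the counting is not given in the sources used here.

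Of the 10 members, 0 were called in knockout against control, where 1 of 15234 genes was called (0.00656%), and 0 in D489V against control, where 9 of 15339 were (0.0587%). At an unadjusted p under 0.05 in limma, these counts were 1 member (Cpt1b, with 15.1% of all genes) and 3 members (Cd36, Lpl and Cpt1b, with 9.43% of all genes). The median log2 difference of the members was 0.15 in knockout and 0.01 in D489V, against 0.01 and 0.00 over all genes tested. Both comparisons use the same 5 controls, so they are given side by side only. In knockout against D489V the members' median was 0.19 against 0.00, with 6 members higher and 4 lower, and 3 members (Cd36, Fabp3 and Cpt1b) had an unadjusted p under 0.05 in limma, as did 37.7% of all genes.

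**Figure D4:**
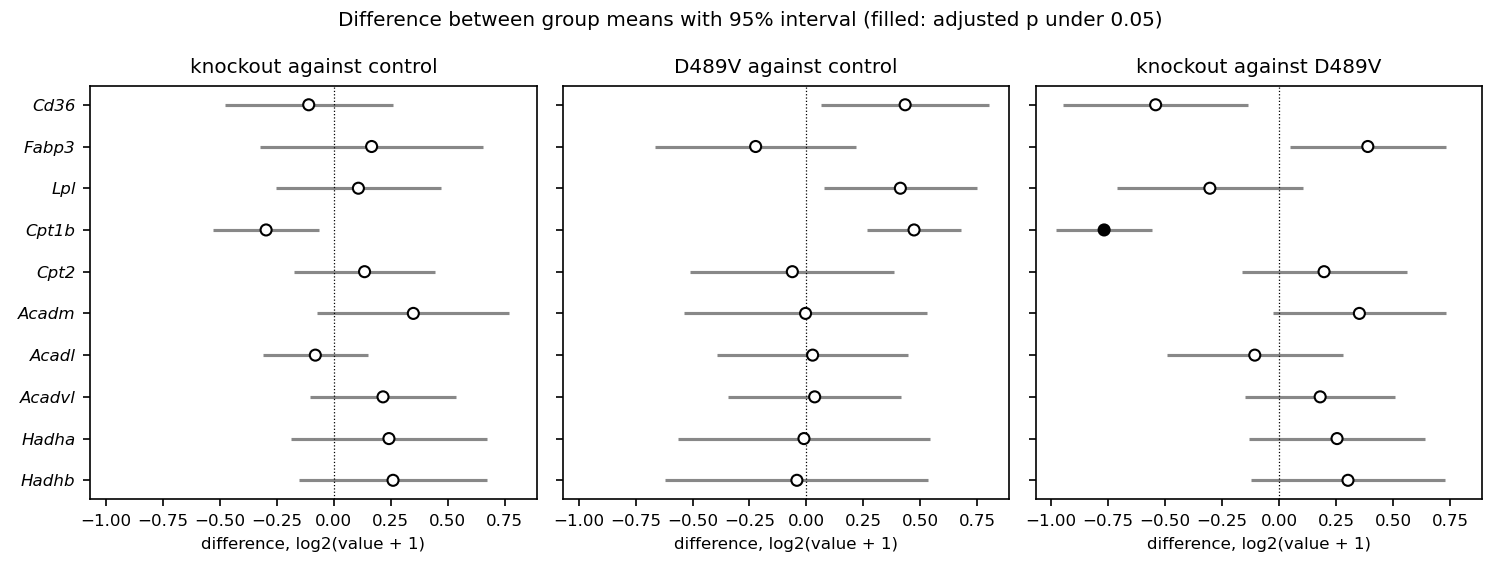
Difference in mean log2(value + 1) between groups for each gene in the 3 comparisons, with its 95% interval from limma. The black point is the 1 called value, Cpt1b in knockout against D489V at -0.77, and the other intervals that leave out 0 are those of Cpt1b against control, Cd36 and Lpl in D489V against control, and Cd36 and Fabp3 in knockout against D489V.

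Of 85 further genes of fatty acid handling in 9 lists, 0 were called in either comparison with control and 30 in knockout against D489V, 8 higher and 22 lower in knockout (10.5% and 10.3% of all genes). The count was 18 without D489V 1 and 7 without knockout 3, 4 and 5, which leaves 2 knockout samples. Over all genes the calls fell from 3181 to 1398 and 586 in those fits. In the list of uptake, binding and lipolysis, 5 of 8 were lower in knockout, with log2 differences of -1.69 for Fabp5, -1.62 for Angptl4, -1.59 for Fabp4 and -1.04 for Slc27a1 (limma adjusted p 0.00196, 0.0323, 0.00392 and 0.00661). Fabp4 and Fabp5 are binding proteins of fat and other cells, Angptl4 an inhibitor of lipoprotein lipase and Slc27a1 a fatty acid transport protein. Slc27a1 held 2173 to 3894 normalized counts in knockout, 3454 to 4655 in control and 4415 to 8057 in D489V.

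In triglyceride storage and lipolysis 6 of 12 were lower in knockout than in D489V, among them Lipe, hormone-sensitive lipase (-1.54), Dgat2 (-1.54) and Dgat1 (-1.33), which complete triglyceride synthesis, and G0s2 (-1.14), an inhibitor of adipose triglyceride lipase. In fatty acid synthesis 5 of 6 were lower, with Elovl6 at -2.72, Fasn at -2.67, Acly at -2.30 and Scd1 at -1.87. Lipe and Fabp4 are also in the adipocyte list, and the adipocyte sums given above moved in the same direction, lower in knockout than in D489V. Gpihbp1, another of the lower genes in the uptake list, is also in the endothelial list, whose sums were lower in knockout too. The part of fat and capillary cells in these differences was not tested. Fasn varied from 2679 to 48820 normalized counts among the 5 controls.

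In mitochondrial beta oxidation and electron transfer 3 of 15 were called, 1 higher and 2 lower in knockout than in D489V: Acad9 (0.58), Acad10 (-0.69) and Eci1 (-0.36). The median of that list was 0.17, close to the 0.19 of the members. The carnitine list had 1 of 5 called, Cpt1c (-0.82), and the peroxisomal and thioesterase lists had 0 of 8 and 0 of 5. Of 6 acyl-CoA synthetase genes, Acsl4 (0.84) and Acsl6 (0.60) were higher and Acsl5 (-0.33) lower in knockout.

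Among 20 regulators 5 were higher and 2 lower in knockout than in D489V. The lower ones were Acaca (-1.74), the acetyl-CoA carboxylase of lipid synthesis, and Pparg (-1.63), the nuclear receptor of fat cells. Esrrb (1.28), an oestrogen-related receptor, and Nrip1 (1.09), a corepressor, were among the higher ones. Pparg held 75 to 617 normalized counts in control, 117 to 251 in knockout and 291 to 828 in D489V.

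**Figure D5:**
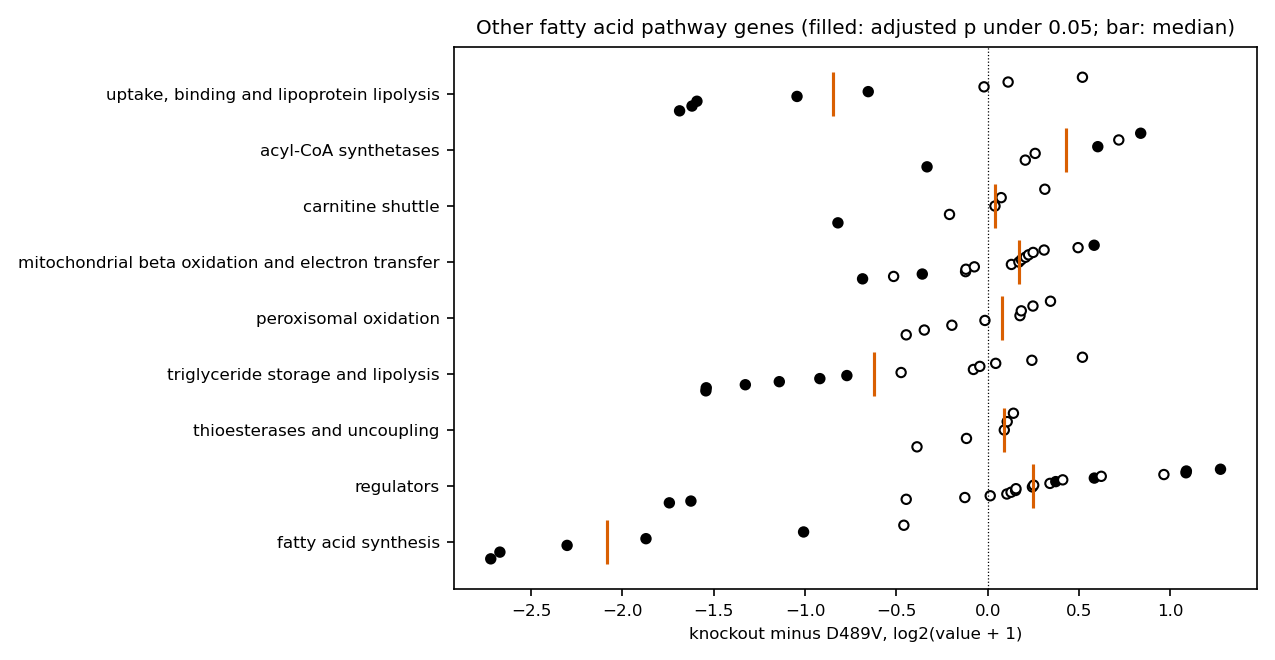
Log2 differences, knockout minus D489V, of the 85 further pathway genes by list, with filled points at adjusted p under 0.05 and an orange bar at the list median. The fatty acid synthesis, uptake and triglyceride lists lie to the left, at medians of -2.09, -0.85 and -0.62, and the mitochondrial list lies near 0, at 0.17.

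Promoter windows were available for 8 members, all but Cpt1b and Lpl, as the 250 bases before the RefSeq start on GRCm38.p6. RefSeq starts can differ from the GENCODE starts behind the gene positions given above. The Cd36 window lies inside the gene span given above. The Fabp3, Cpt2, Hadha and Hadhb windows each lie in part inside the span of their own gene, so they are not wholly upstream of it. The RefSeq starts of Hadha and Hadhb are 272 bases apart, against 85 in GENCODE M21. The windows were searched on both strands for AGGTCA, the core that nuclear receptors bind, and for 3 longer elements. These were the direct repeat of AGGTCA with 1 base N between, to which PPAR and RXR bind, TCAAGGTCA, the element of oestrogen-related receptors, and the NRF1 element, GCGCA and GCGC with 1 base N between. The longer elements with AGGTCA contain the core. The core was in the windows of Cd36, Acadm and Acadvl, 3 of 8, and in 4607 of all 32851 windows. The direct repeat, the oestrogen-related receptor element and the NRF1 element were in 0 of 8 and in 0.0335%, 0.387% and 3.74% of all windows. The Hadha and Hadhb windows share 228 of their 250 bases, so the 8 windows are not separate sequences. The windows with the core are shown, with the core in capitals, at chr5:17835897-17836146 (Cd36), chr3:153944644-153944893 (Acadm) and chr11:70015429-70015678 (Acadvl), each on the minus strand.
Cd36: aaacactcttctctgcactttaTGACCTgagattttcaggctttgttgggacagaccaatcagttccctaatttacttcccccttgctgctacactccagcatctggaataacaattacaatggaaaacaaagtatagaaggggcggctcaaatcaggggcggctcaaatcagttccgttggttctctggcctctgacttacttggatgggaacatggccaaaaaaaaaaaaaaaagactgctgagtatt
Acadm: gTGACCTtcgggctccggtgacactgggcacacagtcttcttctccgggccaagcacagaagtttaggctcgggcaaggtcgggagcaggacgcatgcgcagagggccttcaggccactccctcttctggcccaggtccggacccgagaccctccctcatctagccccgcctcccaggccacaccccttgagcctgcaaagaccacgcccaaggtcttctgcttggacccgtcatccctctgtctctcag
Acadvl: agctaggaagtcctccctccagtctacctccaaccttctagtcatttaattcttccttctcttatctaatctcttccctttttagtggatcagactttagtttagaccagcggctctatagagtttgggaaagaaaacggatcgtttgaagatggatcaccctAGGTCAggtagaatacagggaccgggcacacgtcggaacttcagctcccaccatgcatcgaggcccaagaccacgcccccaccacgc

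The windows are printed in the direction of transcription. The core lies on the opposite strand, and so reads TGACCT, in Cd36, 228 bases before the start, and in Acadm, near the far end of the window. In Acadvl it reads as AGGTCA, 87 bases before the start. The GC content was 43.2% in Cd36, with 3 CpG dinucleotides, 64% in Acadm with 12 and 49.6% in Acadvl with 9, against medians of 52.4% and 6 over all windows. Cd36 had the lowest GC content of the 8 and Acadl the highest, at 68%. A match of letters is a description and does not show binding.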

How the data were processed

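Poly(A) RNA of 15 muscle samples was sequenced from directional libraries, per the labels' protocols. Values as deposited by the authors are normalized counts rounded to whole numbers, treated here as a score and not as raw counts. The submitters' processing notes list Trim Galore 0.6.0, cutadapt, FastQC, STAR 2.7.0e, DESeq2 1.26.0 and GRCm38 without role or order. The counting tool, its annotation and the normalization step are not given in the sources used here. Both tables were joined by gene ID, their 5 control columns being identical, and all 55536 IDs matched GENCODE M21.

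Log2(value + 1) was fitted with limma 3.58.1 (R 4.3.3, trended eBayes, two-sided), 5 against 5 samples without covariates. A gene entered where 5 or more of the 10 samples reached a value of 10. The Benjamini-Hochberg adjustment ran over all genes that entered, with calls below 0.05. Folds of low genes are understated on this scale. The fit was tested on simulated data. No count model was run, since raw counts were not used here. The labels do not say whether replicates are separate animals, so p-values measure only the spread between these samples, which may be technical.

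The members and lists were chosen with earlier results of these data known. Named are the members, Pdgfrb, up to 4 called genes of each pathway list with the greatest differences, the 5 genes most like the members, and defining markers. Xist, Sdha, Gm44502, Chkb, Dvl2, Fabp3-ps1 and the samples low in Hadha were singled out after their values were seen. Alternatives varied pseudocount, filter, scaling, variance model and weights, fitted all 15 samples at once, blocked on the replicate number, and dropped single samples. The fit without the samples rich in lymphocyte genes, and counts of other pathway genes under each alternative, were added after seeing the data. Tables and plots came from Python 3.11.15 (numpy 2.4.6, pandas 2.3.3, matplotlib 3.10.9).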

Additional observations from a re-analysis of the deposited data

Results flagged for a closer look

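Among 60 groups of 5 values, for the members and the marker sums on the log2 scale, 6 held a sample whose gap to its nearest neighbour was over 0.71 of the whole range. Chance gives about 1 in 20, or 3 such groups. Cpt1b in D489V 2 was 7.95, above a range of 7.79 to 7.83 in D489V 1, 3, 4 and 5. Cpt2 in knockout 1 was 11.03, above 10.74 to 10.8 in the rest of that group. Hadha in knockout 2 was 13.46, below 13.66 to 13.71. In D489V 3 the adipocyte sum was 15.03, below 16.32 to 16.81, and the slow fibre sum was 17.87, above 15.62 to 16.2. The lymphoid sum in control 5 was 12.61, above 5.46 to 7.09 in the remaining controls.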

How the results depend on the processing

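Cpt1b was called in knockout against D489V in all 21 alternatives, at -0.82 to -0.69. Of 620 values of single members under alternatives, 577 kept direction and side of the threshold, 8 became called and 35 changed sign. In knockout against D489V the count of members called was 1, and 3 with array weights, 2 after upper-quartile rescaling, 2 after quantile normalization and 1 to 2 without 1 sample. The added calls were Cd36, and Fabp3 with array weights. In D489V against control 1 member, Cpt1b, was called with array weights (limma adjusted p 0.0386, against 0.0845 as reported).

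Genes called in knockout against control were 1 as reported, 3 with upper-quartile rescaling, 3 with quantile normalization, 16 in 1 fit of 15 samples, 1 to 7 without 1 sample (7 without knockout 2, 4 without control 5) and 3 without control 5 and knockout 3, 4 and 5. In D489V against control they were 9 as reported, 19 with a pseudocount of 5, 86 with array weights, 16 after quantile normalization, 4 for genes whose mean reached 50, 21 under robust eBayes, 23 after upper-quartile rescaling, 1 in 1 fit of 15 samples and 2 to 26 without 1 sample (26 without D489V 3). In knockout against D489V they were 3181 as reported, 1398 to 3686 without 1 sample, and 586 without knockout 3, 4 and 5. Beyond the fewer samples and genes, the cause was not tested.

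Signs changed for Lpl in knockout against control (-0.058 with quantile normalization, -0.26 without control 5 and knockout 3, 4 and 5), for Acadl (-0.006, quantile normalization) and Acadm (0.007, array weights) in D489V against control, and for Acadvl in knockout against D489V (-0.002, quantile normalization). Without 1 sample, D489V minus control ranged from -0.182 to 0.065 in Cpt2, -0.168 to 0.108 in Acadm, -0.092 to 0.189 in Acadl, -0.064 to 0.141 in Acadvl, -0.183 to 0.111 in Hadha and -0.219 to 0.109 in Hadhb, and knockout minus D489V from -0.27 to 0.012 in Acadl.

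Deviations of samples sharing a replicate number had correlations of -0.4 to 0.386, with both signs in each comparison. The extremes were replicates 3 and 1 of D489V against control. The labels do not say whether the numbers pair samples, and these correlations cannot decide it. With the replicate block, 1 gene and 0 members were called for knockout minus control, 7 genes and 0 members for D489V minus control, and 2208 genes and 2 members (Cpt1b and Cd36) for knockout minus D489V.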
